A study of Mus musculus with 110 samples.

Results

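The clustered protocadherin genes were described across all libraries of the series, that is in the 4 sets, in immunoprecipitated (IP) and Input RNA and under the 4 conditions. Members were the rows of the count table whose symbols name an alpha (Pcdha), beta (Pcdhb) or gamma (Pcdhga, Pcdhgb, Pcdhgc) isoform. This gave 58 genes of 24056 rows used, 14 in the alpha cluster, 22 in the beta cluster and 22 in the gamma cluster. The 5 C-type isoforms, Pcdhac1, Pcdhac2, Pcdhgc3, Pcdhgc4 and Pcdhgc5, are counted within alpha and gamma. The clusters lie in tandem on mouse chromosome 18 (mm10), alpha at chr18:36930285-37188897, beta at chr18:37264998-37521419 and gamma at chr18:37661775-37841873. Every member passed the filter on low counts in every fit.

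Clustered protocadherins are single-pass membrane proteins of the cadherin superfamily. They bind the same isoform on an opposing cell, and the mix of isoforms on a neuron gives its branches a surface identity used in self-avoidance, tiling, synapse formation and survival. Each alpha and gamma isoform has its own promoter and variable exon, which holds the extracellular domains and is spliced to constant exons shared by its cluster, whereas each beta isoform is encoded by a single exon. In most neurons a few alpha, beta and gamma A or B promoters are chosen at random, with CTCF, cohesin and distal enhancers, and the C-type isoforms are used more evenly across cells. Astrocytes also express gamma isoforms, at contacts with synapses.

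R6/2 mice carry a transgene of the first exon of human huntingtin with an expanded repeat and serve as a model of Huntington's disease. The study lowered mutant huntingtin with zinc-finger protein (ZFP) repressors delivered by adeno-associated virus (AAV), and read RNA from ribosomes tagged with HA in astrocytes or neurons. The conditions were R6/2 with ZFP (RZ), R6/2 with the Delta control virus (RD), NCAR with ZFP (NZ) and NCAR with Delta (ND). The strain field reads R6/2 for every sample, NCAR included, and the labels spell out neither NCAR nor, for each set, the cells that received ZFP, the promoter of the virus or the tag, the tissue or the age. The neuron sets were hSyn, with IP and Input of 4 RZ, 3 RD, 4 NZ and 5 ND samples, and n_ZFP_n_Rpl, with IP and Input of 4 samples per condition. The astrocyte sets were MG, with IP only of 4 samples per condition, and n_ZFP_a_Rpl, with IP and Input of 4 RZ, 3 RD, 4 NZ and 4 ND samples. The labels do not say whether a replicate is an animal, so p-values measure the spread between these samples, which may be technical.

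The table gave 34.8 to 72.6 M assigned counts per IP library and 26.4 to 44.2 M per Input library. Against Input, 18 of 18 astrocyte markers were higher in the n_ZFP_a_Rpl IP, 16 of 18 were lower in the n_ZFP_n_Rpl IP, and 11 were lower and 4 higher in the hSyn IP. Of all genes tested, 39.2% were higher and 39.5% lower in the hSyn IP. The shares were 42.6% and 40.7% in n_ZFP_n_Rpl, and 42.1% and 42.8% in n_ZFP_a_Rpl. Pan-neuronal markers were higher in IP for 15 of 16 in hSyn and for 16 of 16 in n_ZFP_n_Rpl, but also for 13 of 16 in n_ZFP_a_Rpl, where their summed level was 7432 to 7830 CPM (counts per library scaled to a common total) in ND. MG has no Input, so its enrichment for astrocyte RNA could not be tested. Pan-neuronal markers summed to 7834 to 8727 CPM in the ND libraries of its IP. Astrocyte markers summed to 29279 to 36206 CPM in the same libraries, beside 25712 to 30863 in ND of the n_ZFP_a_Rpl IP. In bulk RNA fewer cells of a type and less RNA per cell cannot be told apart. Mouse Htt, which encodes huntingtin, did not pass the test between RD and ND in any of the 7 fits, and the transgene has no row of its own here. In the hSyn ND samples, deviations from the group mean paired IP 1 with Input 2, IP 2 with Input 3, IP 3 with Input 4 and IP 4 with Input 5 (r between 0.613 and 0.776 over 10736 genes), while other pairs of different numbers reached at most 0.0189. Only ND sample 0 paired with its own number there. In hSyn NZ the IP libraries carry the numbers 1, 2, 3 and 5 and the Inputs 1, 2, 3 and 4. IP and Input were compared without pairing. Without the hSyn ND libraries numbered 2 and 3, 48 members passed between IP and Input, against 49 with them. That count does not test the numbering, since the comparison does not use the numbers and the shift also covers other libraries.

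A few members differed between libraries of the same group far more than the others did. Levels are CPM, the library's counts scaled to a common total, after TMM normalisation. Over the 110 libraries Pcdhga11 ranged between 3.23 and 47.6 CPM with a median of 22.7, and Pcdhgb8, annotated in RefSeq as a transcribed pseudogene, between 1.04 and 14.2 with a median of 5.15. In the n_ZFP_a_Rpl IP, Pcdhga11 had 22.2, 5.71 and 24.9 CPM in RD and 26.0, 38.6, 39.9 and 33.8 in ND. Pcdhgb8 had 5.55, 9.97 and 6.51 CPM in the same RD libraries and 6.75, 2.07, 1.57 and 1.25 in the ND libraries. Where Pcdhga11 was low, Pcdhgb8 was high, and the Input of ND sample 1 was also the low one for Pcdhga11 and the high one for Pcdhgb8.

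With the mean of each group removed, the members most like Pcdhga11 over the 63 IP libraries were Pcdhgb6 (r = 0.961), Pcdhb6 (0.852) and Pcdhgb2 (0.813), while Pcdhgb8 (-0.818), Pcdhga4 (-0.692) and Pcdhb3 (-0.689) ran the other way. These correlations share libraries and depth and are given as a description. Among the 50 genes most like it in either direction, 29 lay on chromosome 18, where 2.95% of the 13682 genes compared lie. They were 10 members and 19 other genes, such as Camk4 (0.76) and Tmco6 (0.736), the other genes spread between 5491501 and 46281089. Besides the members above, the 10 held Pcdhga9 (0.573), Pcdhga2 (0.526), Pcdhga7 (-0.512) and Pcdhgc5 (-0.448). Neither Pcdhga11 nor Pcdhgb6 passed the test between RD and ND in any fit. How this pattern moves other members was measured by adding the log ratio of Pcdhga11 to Pcdhgb8 to the model in the comparisons of RD with ND and of RZ with RD. No other comparison was fitted with it.

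**Figure D1:**
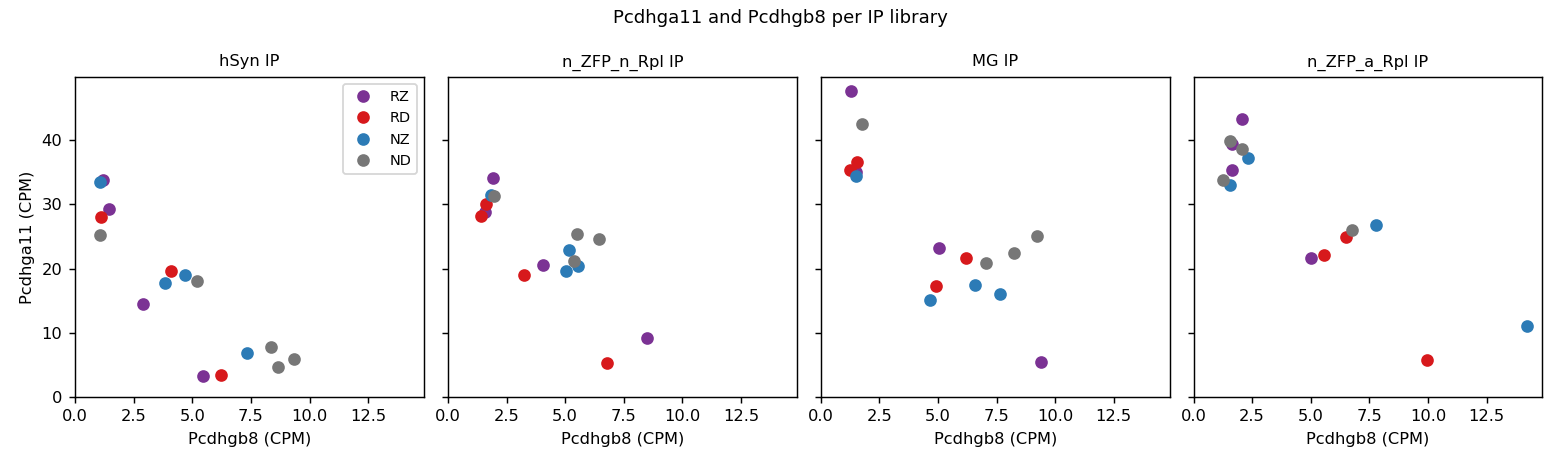
Pcdhga11 (vertical axis, CPM, linear scale) against Pcdhgb8 (horizontal axis, CPM, linear scale) in each IP library, by set and condition. Libraries of the same condition fall into separate clouds, and high Pcdhga11 goes with low Pcdhgb8.

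The beta genes, each a single exon, could be ordered by level per kilobase of gene. In ND libraries of the hSyn IP, Pcdhb17 had the highest mean, at 10.3 CPM per kb, followed by Pcdhb20 at 7.29 and Pcdhb19 at 7.09, and Pcdhb1 the lowest, at 0.317. Pcdhb17 and Pcdhb1 were also the extremes in the n_ZFP_n_Rpl IP (9.10 and 0.358), the MG IP (12.6 and 0.446) and the n_ZFP_a_Rpl IP (10.5 and 0.513). Reads in the constant exons of alpha and gamma may belong to any isoform of the cluster, and the counting mode is not given in the sources used here, so levels of those genes were not compared with each other.

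Most members were higher in IP than in Input RNA (edgeR's quasi-likelihood test, with p-values adjusted by Benjamini-Hochberg and called under 0.05). In hSyn 49 were higher and 0 lower, where 39.2% of all genes tested were higher and 39.5% lower. In n_ZFP_n_Rpl 43 were higher and 3 lower, beside 42.6% and 40.7% of all genes, and in n_ZFP_a_Rpl 42 were higher and 4 lower, beside 42.1% and 42.8%. DESeq2 also found 0 lower in hSyn, and no member there was lower at an unadjusted p under 0.05. The median log2 IP over Input ratio of the members was 0.50 in hSyn, 0.28 in n_ZFP_n_Rpl and 0.32 in n_ZFP_a_Rpl, beside medians near 0 for all genes. Since IP and Input libraries of a sample are not independent, p-values of these comparisons that treat them as such are approximate.

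Of the members, Pcdhgc3 differed most in this ratio between n_ZFP_n_Rpl and n_ZFP_a_Rpl. It is a C-type gamma isoform known in mouse cortex for promoting dendrite branching. Its log2 IP over Input ratio (± SE) was -0.69 ± 0.05 (adjusted p = 1.15e-13) in n_ZFP_n_Rpl and 0.24 ± 0.06 (adjusted p = 0.000924) in hSyn, against 1.48 ± 0.04 (adjusted p = 4.87e-23) in n_ZFP_a_Rpl. In ND it had 34.6, 40.4, 40.8 and 50.3 CPM in the n_ZFP_n_Rpl IP and 71.5, 66.3, 66.7, 75.2 and 71.8 in the hSyn IP, against 250.5, 290.1, 296 and 313 in the MG IP and 233, 268, 254 and 202 in the n_ZFP_a_Rpl IP. The neuron and astrocyte IPs did not overlap, and set and cell type cannot be told apart here. Between n_ZFP_n_Rpl and n_ZFP_a_Rpl the IP over Input ratio differed by -2.19 ± 0.06 (adjusted p = 4.86e-34) for Pcdhgc3 and by -0.85 ± 0.08 (adjusted p = 1.7e-14) for Pcdhgc4, an isoform needed for neuronal survival in mice.

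In that direct test 6 members had a higher and 10 a lower ratio in n_ZFP_n_Rpl than in n_ZFP_a_Rpl, beside 38% and 29.3% of all genes. All 10 with the lower ratio were gamma or beta genes, among them Pcdhgb7 (-0.47 ± 0.07) and Pcdhgb4 (-0.45 ± 0.09). The 6 with the higher ratio were 4 alpha and 2 beta genes, among them Pcdha7 (0.55 ± 0.10), Pcdhac1 (0.48 ± 0.11) and Pcdhac2 (0.26 ± 0.05), the last known for the tiling of serotonergic axons in mice. Members lower in IP than in Input within n_ZFP_a_Rpl were Pcdha7 (-0.51 ± 0.07), Pcdha8 (-1.66 ± 0.13), Pcdha11 (-0.26 ± 0.07) and Pcdhac1 (-0.56 ± 0.07). In n_ZFP_n_Rpl they were Pcdha8 (-1.61 ± 0.14), Pcdhgb8 (-0.63 ± 0.24) and Pcdhgc3. Pcdha8 had -0.29 ± 0.19 (adjusted p = 0.166) in hSyn.

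Among the members with the highest IP over Input ratio were Pcdhga6 and Pcdhga7 in each set. Pcdhga6 had 0.77 ± 0.11 in hSyn, 0.65 ± 0.05 in n_ZFP_n_Rpl and 0.80 ± 0.04 in n_ZFP_a_Rpl. In the alpha cluster Pcdha1 led in both neuron sets, with 1.01 ± 0.21 in hSyn and 0.74 ± 0.15 in n_ZFP_n_Rpl, and Pcdha2 led in n_ZFP_a_Rpl with 0.60 ± 0.08. In the beta cluster the highest were Pcdhb2 in hSyn (0.75 ± 0.09) and Pcdhb1 in n_ZFP_n_Rpl (0.81 ± 0.23) and n_ZFP_a_Rpl (0.73 ± 0.11). Pcdhac2, Pcdhgc4 and Pcdhgc5 were higher in IP in all 3 sets: Pcdhac2 had 0.87 ± 0.05, 0.66 ± 0.04 and 0.38 ± 0.02, Pcdhgc4 0.64 ± 0.06, 0.23 ± 0.05 and 1.08 ± 0.06, and Pcdhgc5 0.85 ± 0.06, 0.57 ± 0.04 and 0.61 ± 0.04, in hSyn, n_ZFP_n_Rpl and n_ZFP_a_Rpl. Pcdhac1 had 0.63 ± 0.13 in hSyn and -0.07 ± 0.08 (adjusted p = 0.452) in n_ZFP_n_Rpl.

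**Figure D2:**
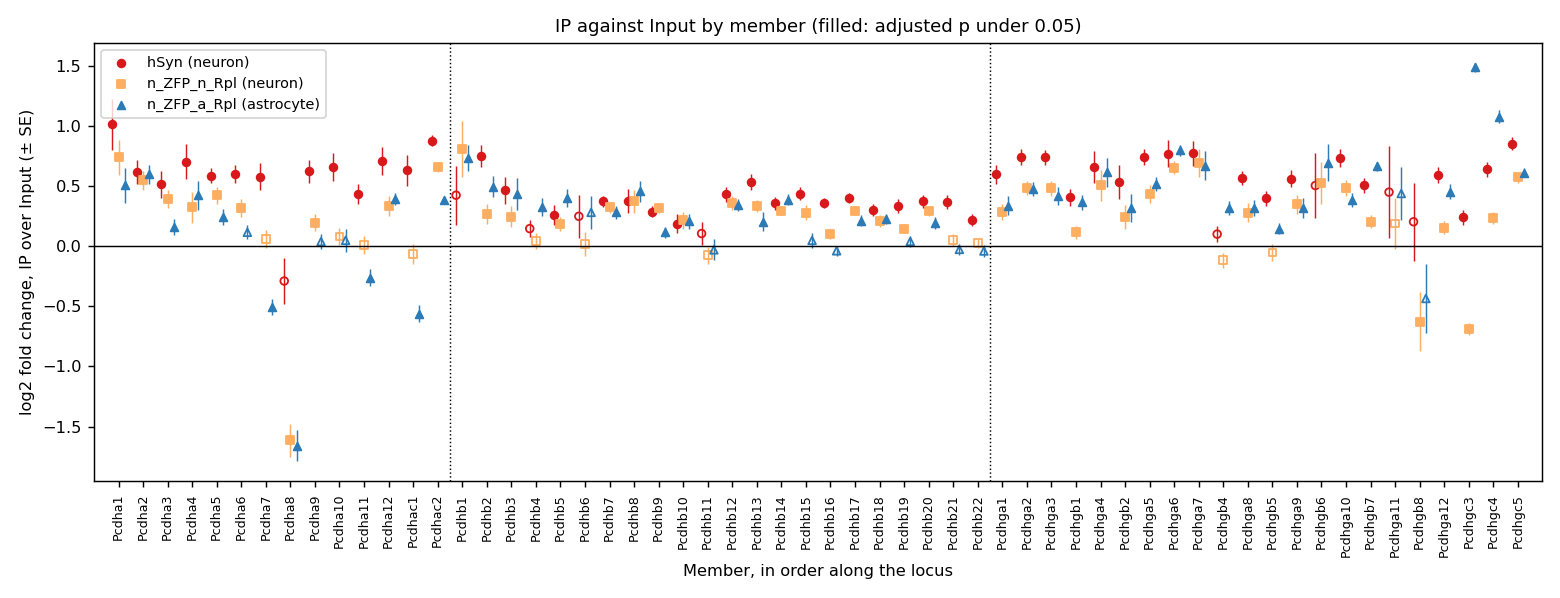
Log2 IP over Input ratio of each member (± SE), in locus order, in hSyn, n_ZFP_n_Rpl and n_ZFP_a_Rpl. Filled points passed the test (adjusted p under 0.05). Most points lie above 0, and Pcdhgc3 stands at -0.69 in n_ZFP_n_Rpl, 0.24 in hSyn and 1.48 in n_ZFP_a_Rpl.

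RD was then compared with ND, which shows how the members differ in R6/2 mice without ZFP. Most beta genes were higher in RD in the neuron IPs and in the n_ZFP_a_Rpl IP, while alpha and gamma genes were called in both directions. In the hSyn IP 30 members were higher and 6 lower in RD, beside 25.4% and 25.5% of all genes tested (51% in either direction). The n_ZFP_n_Rpl IP gave 24 and 6, beside 25.2% and 26.2% (51.4% in either). The n_ZFP_a_Rpl IP gave 21 and 3, beside 20.6% and 24.7% (45.3% in either), and the MG IP 6 and 6, beside 17.4% and 16.2% (33.5% in either). Of all 58 members 51.7% were higher in the hSyn IP, above the share of all genes, whereas the MG shares were below those of all genes.

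By cluster, 18 of 22 beta genes rose and 1 fell in the hSyn IP, 17 and 0 in the n_ZFP_n_Rpl IP, 6 and 0 in the MG IP and 13 and 0 in the n_ZFP_a_Rpl IP. Their median log2 fold changes were 0.62, 0.54, 0.25 and 0.39. Of the 14 alpha genes 8 rose and 1 fell in the hSyn IP, 3 and 1 in the n_ZFP_n_Rpl IP, 0 and 3 in the MG IP and 4 and 2 in the n_ZFP_a_Rpl IP, with medians of 0.44, 0.35, 0.11 and 0.10. Of the 22 gamma genes 4 rose and 4 fell, 4 and 5, 0 and 3, and 4 and 1 in the same order, with medians of 0.05, -0.11, -0.12 and -0.11. The median over all genes was 0.04 in MG and close to 0 in the other IPs. In the n_ZFP_a_Rpl IP, adding the Pcdhga11 to Pcdhgb8 ratio left 11 of the 21 higher, and 5 lower in place of 3. Calls over all genes there also fell with the ratio, from 3141 to 2257 higher and from 3766 to 3043 lower. With it, 30 members were higher in the hSyn IP, 28 in the n_ZFP_n_Rpl IP and 7 in MG. In the hSyn IP the count of lower members was 3 without RD library 1, 2 or 3, and in MG it was 3 without ND library 1.

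**Figure D3:**
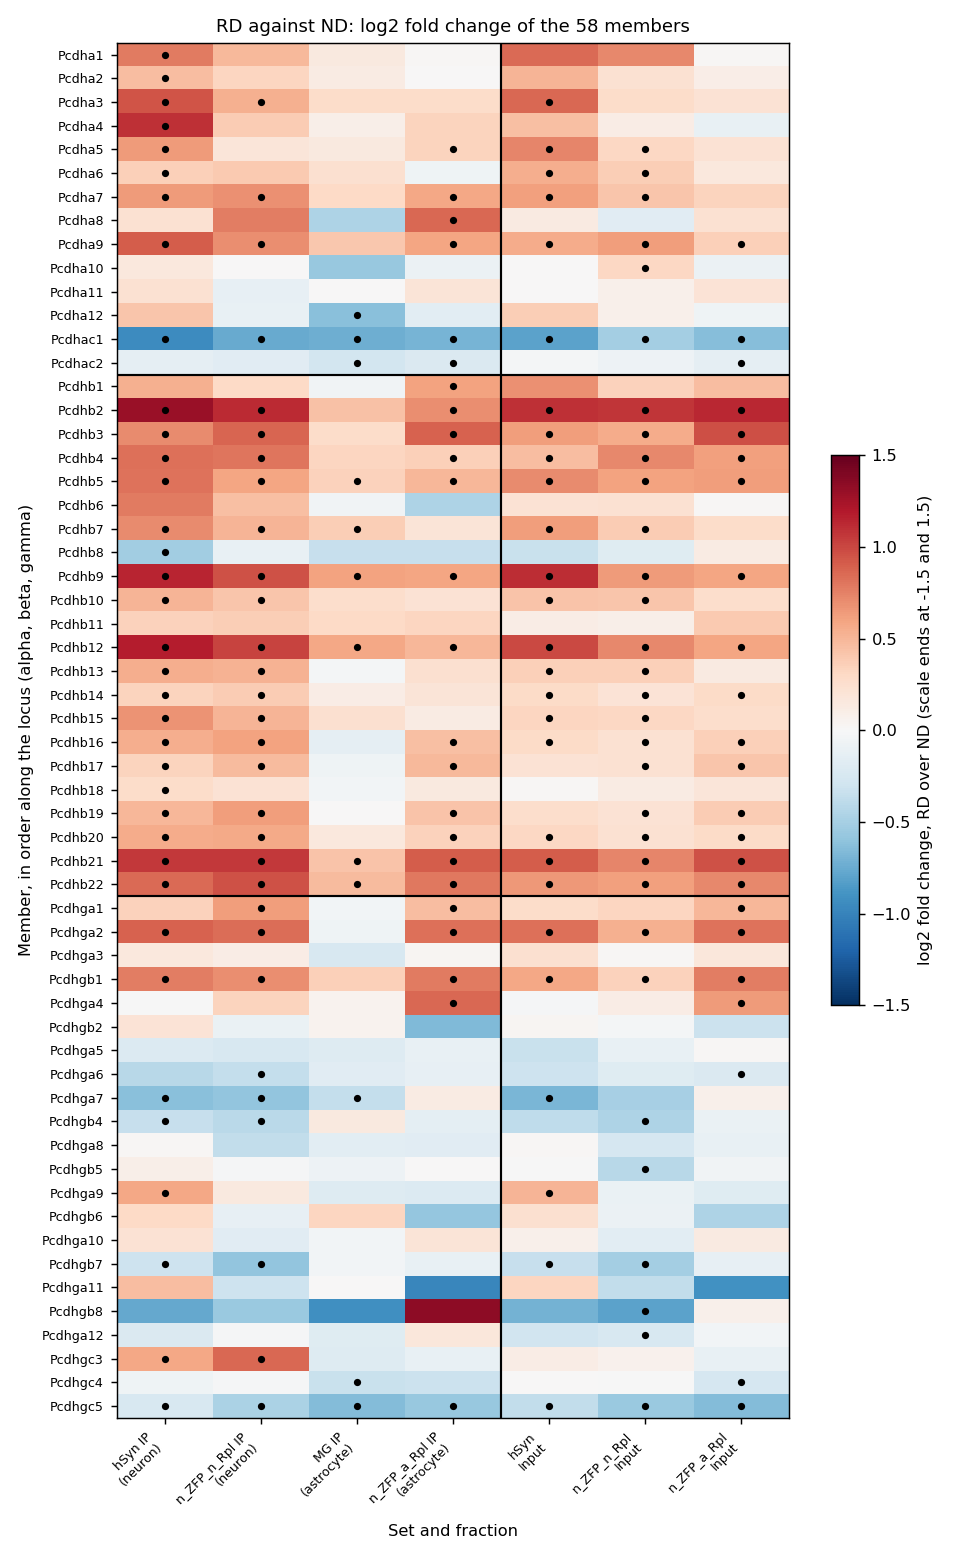
Log2 fold change of RD over ND for each member (rows in locus order, by cluster) in the 4 IPs and 3 Inputs (columns), with marks on the values that passed the test. The beta rows are mostly positive, and Pcdhac1 and Pcdhgc5 are negative in all 7 columns.

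Pcdhb2 showed the largest beta rise in both neuron IPs. It had 9.02, 9.68 and 6.59 CPM in hSyn IP libraries of RD, against 3.00, 3.72, 3.42, 4.12 and 2.93 in ND. In the n_ZFP_n_Rpl IP it had 5.93, 6.33, 9.31 and 7.05 CPM in RD, against 3.96, 3.16, 2.89 and 3.14 in ND. Each RD library was above each ND library in both sets, and the log2 fold change (± SE) was 1.30 ± 0.16 (adjusted p = 5.46e-06) in hSyn and 1.12 ± 0.17 (adjusted p = 4.32e-05) in n_ZFP_n_Rpl. In the n_ZFP_a_Rpl IP RD had 6.56, 6.38 and 6.23 CPM and ND 4.54, 4.49, 3.29 and 3.47, also without overlap, a log2 fold change of 0.70 ± 0.17 (adjusted p = 0.00319). That call was lost with the Pcdhga11 to Pcdhgb8 ratio in the model. In MG, RD with 7.47, 7.06, 7.89 and 10.02 CPM and ND with 5.67, 7.38, 5.69 and 5.17 overlapped, and the value was 0.44 ± 0.18 (adjusted p = 0.0695).

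Pcdhb12 had 25.1, 23.1 and 26.2 CPM in RD and 11.2, 10.7, 13.0, 11.3 and 8.68 in ND in the hSyn IP, and 19.9, 20.5, 19.1 and 20.9 in RD and 12.2, 10.9, 8.36 and 8.57 in ND in the n_ZFP_n_Rpl IP. In the astrocyte sets it had 25.7, 20.1, 25.3 and 27.0 CPM in RD and 15.4, 19.3, 16.1 and 15.1 in ND of MG, and 18.5, 14.2 and 16.9 in RD and 10.8, 13.6, 11.6 and 11.1 in ND of n_ZFP_a_Rpl. RD and ND did not overlap in any of the 4 IPs. The log2 fold changes were 1.18 ± 0.12 (adjusted p = 4.82e-07) in hSyn, 1.01 ± 0.11 (adjusted p = 2.65e-06) in n_ZFP_n_Rpl, 0.57 ± 0.11 (adjusted p = 0.00117) in MG and 0.50 ± 0.10 (adjusted p = 0.00109) in n_ZFP_a_Rpl.

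Pcdhb22, the last gene of the beta cluster, had 24.6, 24.3, 26.3 and 28.9 CPM in RD and 15.3, 13.7, 12.7 and 12.1 in ND of the n_ZFP_n_Rpl IP. In the MG IP it had 25.3, 26.7, 26.9 and 25.7 CPM in RD and 18.3, 18.6, 19.3 and 19.0 in ND, so RD lay clear of ND also in this astrocyte set. Its log2 fold changes were 0.85 ± 0.09 (adjusted p = 1.13e-06) in hSyn, 0.95 ± 0.08 (adjusted p = 9.85e-08) in n_ZFP_n_Rpl, 0.48 ± 0.07 (adjusted p = 7.4e-05) in MG and 0.79 ± 0.10 (adjusted p = 7.9e-06) in n_ZFP_a_Rpl. Pcdhb9 had 35.6, 33.1 and 28.5 CPM in RD and 16.4, 13.3, 16.04, 13.7 and 14.0 in ND of the hSyn IP, and 25.1, 27.7, 27.6 and 26.4 in RD and 18.3, 17.4, 18.6 and 16.2 in ND of the MG IP. Its groups were again apart, with log2 fold changes of 1.14 ± 0.09 and 0.60 ± 0.08. Pcdhb21 rose by 1.06 ± 0.10 in hSyn, 1.07 ± 0.11 in n_ZFP_n_Rpl, 0.43 ± 0.11 in MG and 0.91 ± 0.10 in n_ZFP_a_Rpl.

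Of the beta genes only Pcdhb8 fell, in the hSyn IP alone among the 7 fits (-0.52 ± 0.18, adjusted p = 0.0243). Pcdhb6 and Pcdhb11 did not pass in any fit. Pcdhb3 rose in the n_ZFP_a_Rpl IP by 0.89 ± 0.25 (adjusted p = 0.011), a call lost with the ratio in the model. Pcdhb5, Pcdhb9, Pcdhb12, Pcdhb21 and Pcdhb22 rose in all 7 fits of RD against ND, and Pcdhb2, Pcdhb3, Pcdhb4, Pcdhb16 and Pcdhb20 in 6. In all 4 IPs alone, 5 of the 58 members rose and 2 fell, beside 8.83% and 11.2% of the 14728 genes tested in each. The members thus lay near that share for rises and below it for falls. A share of all genes over the 7 fits is not given here, and nothing particular to the members is read from the repeated calls. Across all 7 fits 19 of 22 beta genes rose in at least 1 and 1 fell in at least 1. No member rose in one fit and fell in another. These counts over 7 fits have no share of all genes beside them and are given as a description. The Inputs come from sets whose IPs are also among the 7, so the fits are not independent of each other.

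**Figure D4:**
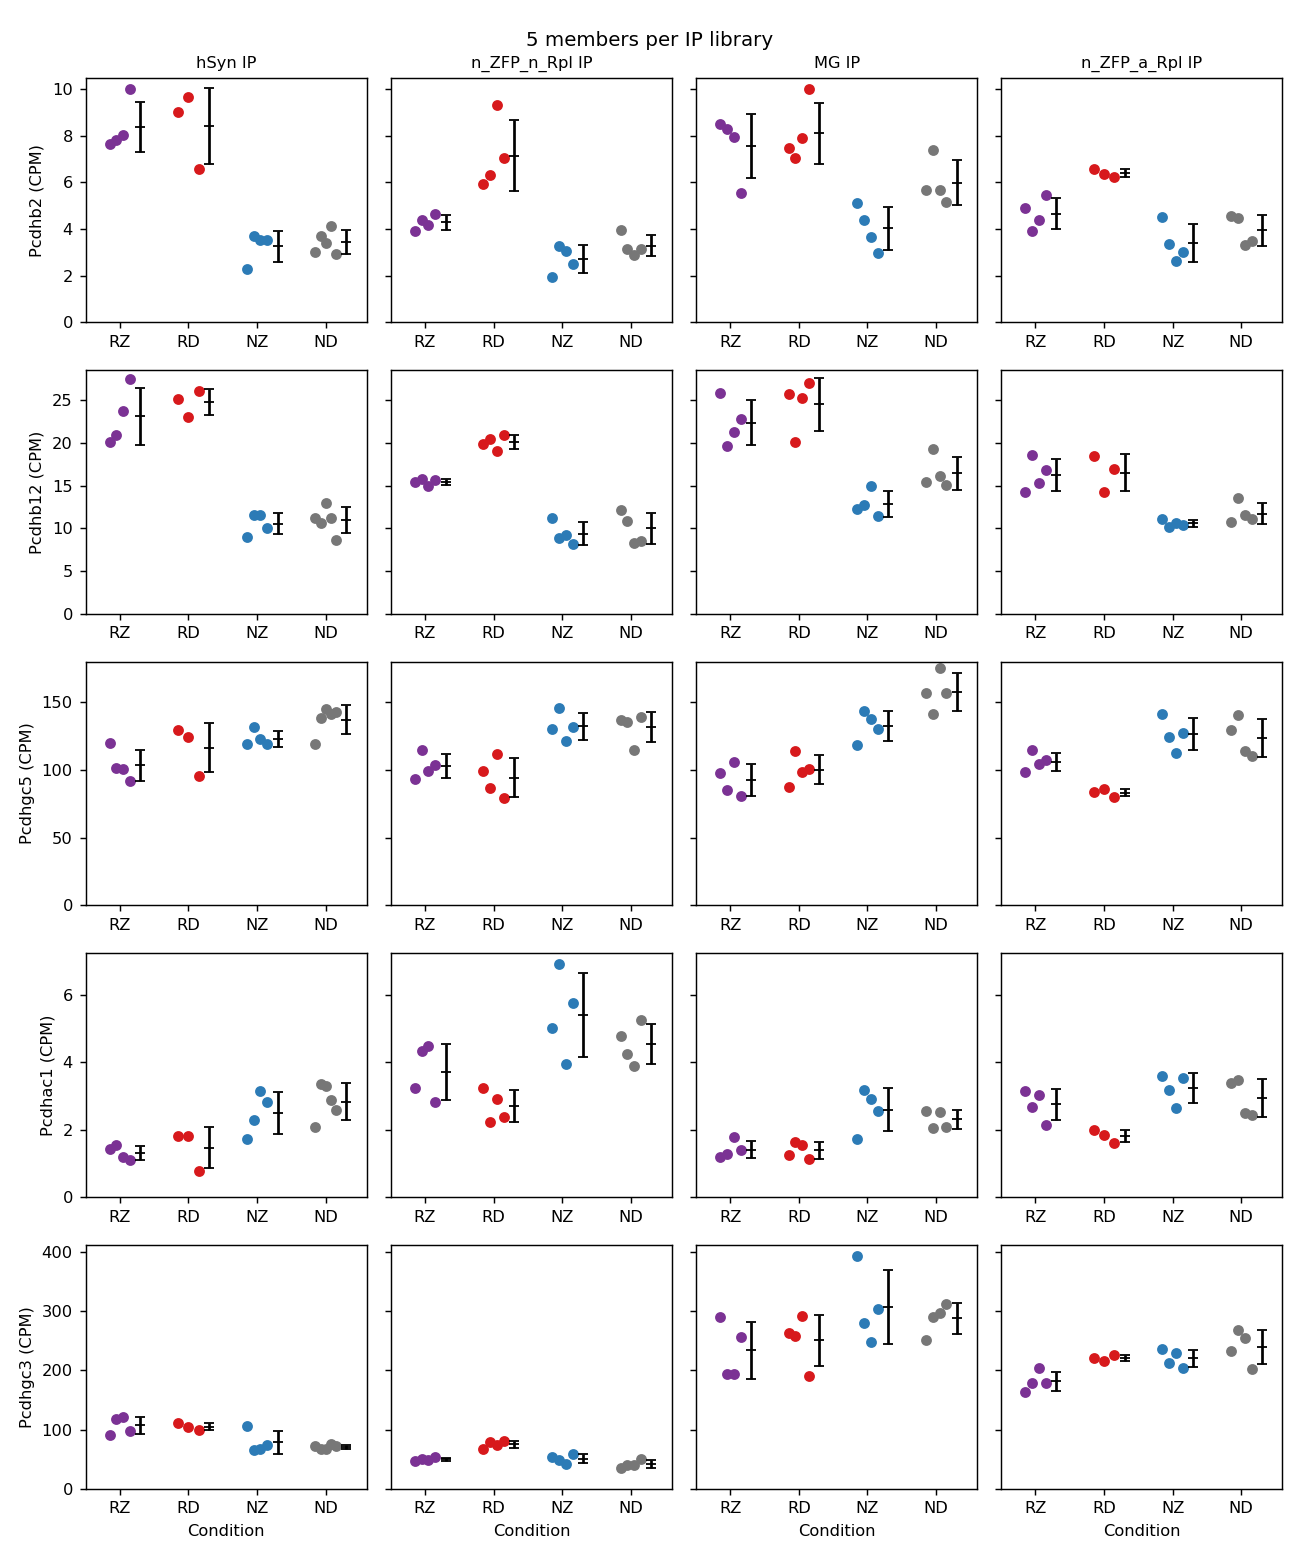
CPM of Pcdhb2, Pcdhb12, Pcdhgc5, Pcdhac1 and Pcdhgc3 in each IP library (points) with the mean and SD of each condition, by set, in the order RZ, RD, NZ, ND within a set. Pcdhb2 and Pcdhb12 lie higher in RD than in ND in the neuron sets, Pcdhac1 and Pcdhgc5 lower, and Pcdhgc3 is higher in RD in the neuron sets, where the change passed the test.

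Summed over the beta cluster, RD libraries held 444 ± 9.07 CPM (SD, n = 3) in the hSyn IP and ND libraries 295 ± 15.96 (n = 5), a ratio of 1.51. The n_ZFP_n_Rpl IP sums were 391 ± 32.0 in RD and 258 ± 20.8 in ND (n = 4 each), a ratio of 1.51. RD was above ND without overlap in both, and likewise in the n_ZFP_a_Rpl IP with 404 ± 28.7 in RD (n = 3) and 310.5 ± 29.9 in ND (n = 4). In MG, RD with 419.5 ± 19.5 and ND with 378 ± 32.1 (n = 4 each) overlapped, at a ratio of 1.11. The gamma sum was lower in RD without overlap in the MG IP, at 805 ± 56.9 CPM in RD and 918 ± 28.0 in ND, and overlapped in the other 3 IPs. Much of that MG sum lies in the abundant C-type genes Pcdhgc3 and Pcdhgc5, whose values are given below. Of the 22 gamma genes 3 were called lower in MG, Pcdhgc5 among them and Pcdhgc3 not. The alpha sum overlapped between RD and ND in all 4 IPs.

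**Figure D5:**
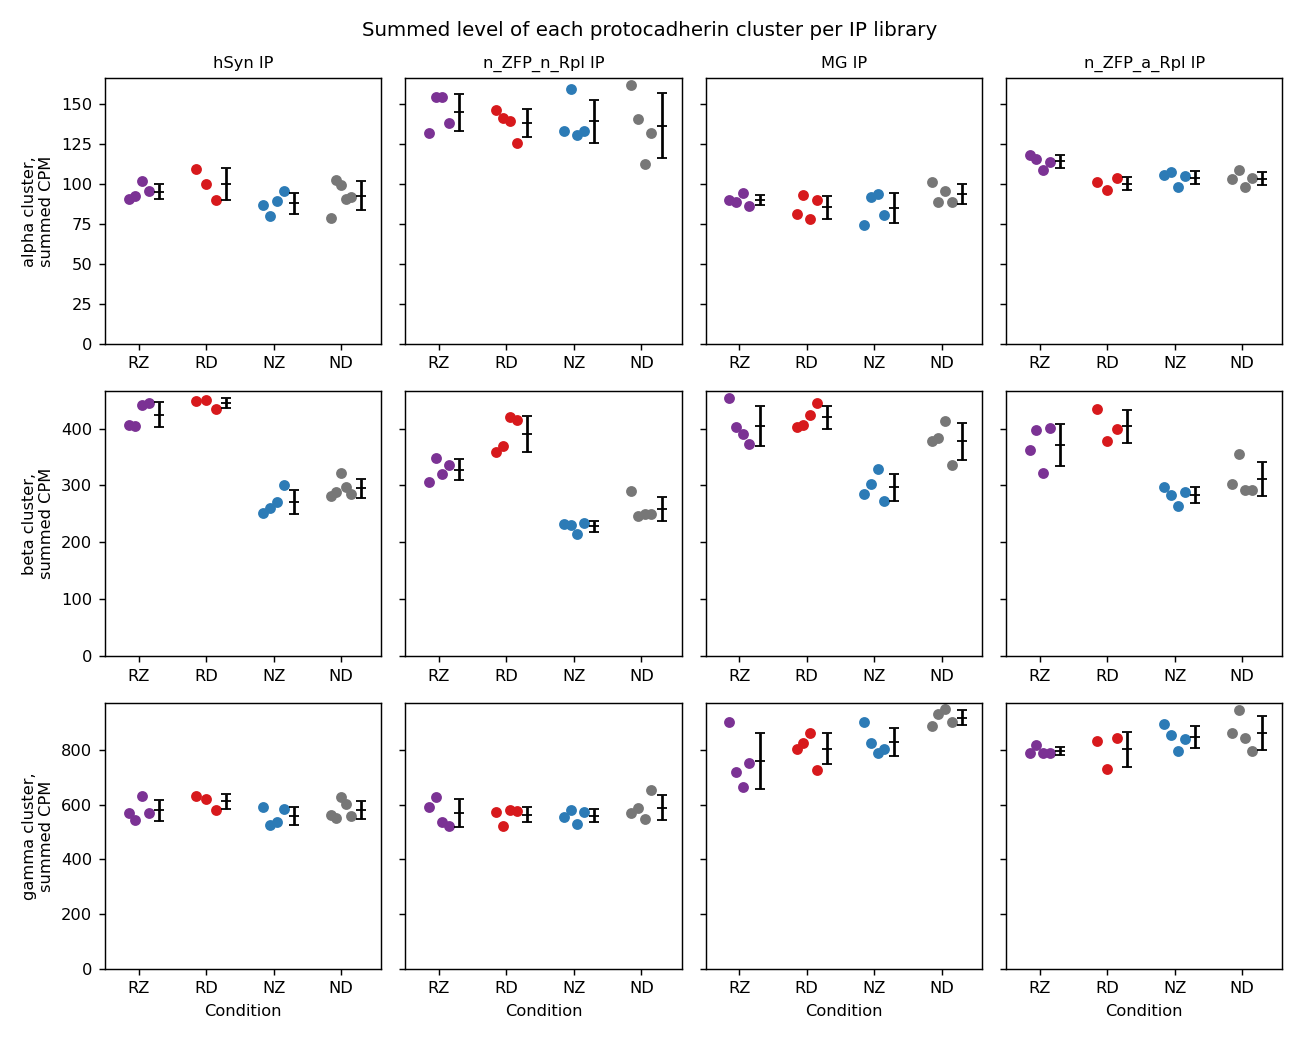
Summed CPM of the alpha, beta and gamma clusters in each IP library (points, with mean and SD per condition) by set. The beta sum of RD lies above that of ND in the hSyn, n_ZFP_n_Rpl and n_ZFP_a_Rpl IPs, with ratios of 1.51, 1.51 and 1.30.

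In the alpha cluster, Pcdha9 rose in 6 of 7 fits. It had 7.51, 5.00 and 6.01 CPM in RD and 2.86, 4.44, 3.48, 3.03 and 2.61 in ND of the hSyn IP (0.91 ± 0.19, adjusted p = 0.000837). In n_ZFP_n_Rpl and n_ZFP_a_Rpl it rose by 0.70 ± 0.14 and 0.59 ± 0.11, and in MG it had 0.41 ± 0.16 (adjusted p = 0.0632). Pcdha7 rose in the hSyn (0.64 ± 0.19), n_ZFP_n_Rpl (0.68 ± 0.17) and n_ZFP_a_Rpl (0.58 ± 0.14) IPs. Pcdha3 rose in both neuron IPs, by 0.94 ± 0.16 in hSyn and 0.54 ± 0.16 in n_ZFP_n_Rpl, and Pcdha4 in the hSyn IP by 1.10 ± 0.27. Pcdha8 rose in the n_ZFP_a_Rpl IP (0.86 ± 0.33, adjusted p = 0.0459), but at under 1 CPM and not with the ratio in the model. Pcdha12 fell in MG (-0.63 ± 0.18, adjusted p = 0.0118).

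The alpha C-type isoforms went down where they were called. Pcdhac1, which in cell assays reaches the surface only with other isoforms, had 3.25, 2.22, 2.90 and 2.38 CPM in RD and 4.77, 4.24, 3.89 and 5.26 in ND of the n_ZFP_n_Rpl IP. In the hSyn IP it had 1.82, 1.80 and 0.777 CPM in RD and 2.07, 3.36, 3.30, 2.87 and 2.57 in ND, and in MG 1.24, 1.65, 1.55 and 1.12 in RD and 2.56, 2.05, 2.53 and 2.09 in ND. RD was below ND without overlap in each. Its log2 fold changes were -0.95 ± 0.27 (adjusted p = 0.00749) in hSyn, -0.76 ± 0.19 (adjusted p = 0.00361) in n_ZFP_n_Rpl, -0.73 ± 0.20 (adjusted p = 0.0118) in MG and -0.70 ± 0.18 (adjusted p = 0.00466) in n_ZFP_a_Rpl. Pcdhac2 fell in the MG (-0.27 ± 0.08, adjusted p = 0.0138) and n_ZFP_a_Rpl (-0.22 ± 0.04, adjusted p = 0.000405) IPs, and had -0.14 ± 0.09 (adjusted p = 0.222) in hSyn and -0.17 ± 0.10 (adjusted p = 0.161) in n_ZFP_n_Rpl.

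In the gamma cluster genes were called in both directions. Pcdhga2 and Pcdhgb1, near the 5' end, rose in all IPs but MG: Pcdhga2 by 0.89 ± 0.12 in hSyn, 0.84 ± 0.12 in n_ZFP_n_Rpl and 0.83 ± 0.10 in n_ZFP_a_Rpl, and Pcdhgb1 by 0.77 ± 0.11, 0.70 ± 0.11 and 0.78 ± 0.12. In MG their values were -0.07 ± 0.10 (adjusted p = 0.618) and 0.36 ± 0.14 (adjusted p = 0.0658). Pcdhga1 rose in the n_ZFP_n_Rpl (0.62 ± 0.12) and n_ZFP_a_Rpl (0.46 ± 0.17, lost with the ratio in the model) IPs, Pcdhga4 in the n_ZFP_a_Rpl IP (0.87 ± 0.25, lost with the ratio in the model) and Pcdhga9 in the hSyn IP (0.58 ± 0.14). Further along, Pcdhga7, Pcdhgb4 and Pcdhgb7 fell in both neuron IPs: Pcdhga7 had -0.62 ± 0.20 in hSyn and -0.59 ± 0.22 in n_ZFP_n_Rpl, Pcdhgb4 had -0.34 ± 0.12 and -0.40 ± 0.13, and Pcdhgb7 had -0.31 ± 0.11 and -0.59 ± 0.09. Pcdhga7 also fell in MG (-0.36 ± 0.13, adjusted p = 0.0377).

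Over the 7 fits Spearman's rho between the fold change and the order along the gamma cluster lay between -0.273 and -0.613, and along the alpha cluster between -0.314 and -0.793. Along the beta cluster it lay between -0.303 and 0.0807. These values are across genes that share libraries, exons and neighbours, which are not independent replicates, and they are given as a description.

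The gamma C-type isoforms differed among themselves. Pcdhgc5, which appears late in development and binds GABA-A receptors, fell in all 7 fits. It had 87.4, 114, 98.5 and 101 CPM in RD and 157, 141, 175 and 157 in ND of the MG IP, and 83.8, 86.0 and 80.3 in RD and 129, 141, 114 and 110.1 in ND of the n_ZFP_a_Rpl IP. It had, in the n_ZFP_n_Rpl IP, 99.3, 87.0, 112 and 79.4 CPM in RD and 137, 135, 115 and 139 in ND. These 3 sets had no overlap, and in hSyn RD (129.7, 124 and 95.9) and ND (119, 138, 145, 141 and 143) overlapped. The log2 fold changes were -0.23 ± 0.10 (adjusted p = 0.0487) in hSyn, -0.48 ± 0.10 (adjusted p = 0.00075) in n_ZFP_n_Rpl, -0.65 ± 0.10 (adjusted p = 0.000124) in MG and -0.57 ± 0.09 (adjusted p = 7.51e-05) in n_ZFP_a_Rpl. Pcdhgc4 fell in MG (-0.33 ± 0.10, adjusted p = 0.0174), and had -0.32 ± 0.14 (adjusted p = 0.0658) in n_ZFP_a_Rpl, -0.07 ± 0.11 in hSyn and -0.02 ± 0.10 in n_ZFP_n_Rpl.

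Pcdhgc3 rose in the neuron IPs. It had 67.4, 79.2, 74.4 and 80.3 CPM in RD and 34.6, 40.4, 40.8 and 50.3 in ND of the n_ZFP_n_Rpl IP, and 111, 104 and 99.5 in RD and 71.5, 66.3, 66.7, 75.2 and 71.8 in ND of the hSyn IP. Every RD library was above every ND library, with log2 fold changes of 0.86 ± 0.11 (adjusted p = 9.93e-06) and 0.58 ± 0.13 (adjusted p = 0.00184). In the astrocyte IPs the groups overlapped, with 262, 258, 292 and 189.5 CPM in RD and 250.5, 290.1, 296 and 313 in ND of MG, and 220.3, 215 and 226 in RD and 233, 268, 254 and 202 in ND of n_ZFP_a_Rpl. The values there were -0.20 ± 0.16 (adjusted p = 0.373) and -0.12 ± 0.09 (adjusted p = 0.296). In the Inputs they were 0.12 ± 0.10 (adjusted p = 0.382) in hSyn, 0.07 ± 0.07 (adjusted p = 0.463) in n_ZFP_n_Rpl and -0.12 ± 0.06 (adjusted p = 0.145) in n_ZFP_a_Rpl.

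The difference between cell types was tested in 1 model over the 4 IP sets, as the mean log2 fold change of RD over ND in the 2 neuron sets minus that in the 2 astrocyte sets. It was positive for 18 members and negative for 1, beside 11.5% and 9.15% of all genes. Of the 18, 13 were beta genes. Pcdhgc3 had the highest value, 0.88 ± 0.14 (adjusted p = 4.57e-06), followed by Pcdhb6 at 0.88 ± 0.32 (adjusted p = 0.0421) and Pcdhb2 at 0.65 ± 0.18 (adjusted p = 0.00617). Pcdhb6 passed in no single fit of RD against ND. Pcdhb6, Pcdhga9 and Pcdhga2 were among the genes that varied with Pcdhga11, and this comparison was not fitted with the Pcdhga11 to Pcdhgb8 ratio. Pcdha12 (0.55 ± 0.19), Pcdha3 (0.47 ± 0.16), Pcdhga9 (0.58 ± 0.18) and Pcdhga2 (0.49 ± 0.11) were also positive, and Pcdhgb7 was negative (-0.37 ± 0.10, adjusted p = 0.00669). Without n_ZFP_a_Rpl RD library 2, 11 were positive and 2 negative, and 2 were negative without any of 10 libraries, that one included. The 2 astrocyte sets also differed from each other, with beta medians of RD over ND of 0.25 in MG and 0.39 in n_ZFP_a_Rpl. For Pcdhga2, Pcdhb21 and Pcdhb22 the n_ZFP_a_Rpl values given above lay nearer to those of the neuron sets than to MG. Their differences thus rested largely on MG, whereas Pcdhb12 and Pcdhgc3 had lower values in both astrocyte sets than in the neuron sets. Each set holds 1 cell type, so set and cell type cannot be told apart.

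The Inputs hold RNA taken before immunoprecipitation. In hSyn Input 23 members were higher and 4 lower in RD, beside 22.5% and 21.6% of all genes, in n_ZFP_n_Rpl Input 24 and 7, beside 26.1% and 23.7%, and in n_ZFP_a_Rpl Input 18 and 5, beside 24.4% and 24.7%. Beta genes made up 15, 17 and 13 of those that were higher and 0 of those that were lower. Pcdhb2 had 5.87, 5.14 and 6.52 CPM in RD and 3.00, 2.65, 2.88 and 2.13 in ND of n_ZFP_a_Rpl Input, without overlap (1.14 ± 0.18, adjusted p = 3.4e-05). Pcdhgc5 had 66.2, 63.2 and 57.4 CPM in RD and 102, 97.9, 101 and 88.7 in ND there (-0.65 ± 0.07, adjusted p = 8.61e-07). The beta sum was 369.7 ± 5.06 CPM in RD (n = 3) and 278 ± 18.7 in ND (n = 5) of hSyn Input, 345 ± 11.2 in RD and 272 ± 10.1 in ND (n = 4 each) of n_ZFP_n_Rpl Input, and 411 ± 6.55 in RD (n = 3) and 309.7 ± 27.3 in ND (n = 4) of n_ZFP_a_Rpl Input, with no overlap in any. The hSyn Input count of higher members was 13 without RD library 2 and 15 without ND library 5. With the ratio of Pcdhga11 to Pcdhgb8 in the model, 15 were higher and 3 lower in n_ZFP_a_Rpl Input. Calls over all genes there went from 3851 to 3311 higher and from 3891 to 3507 lower.

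Counts of lower members in the Inputs rested on single libraries. In hSyn Input there were 2 without ND library 3 or 4 and 1 without RD library 3, in n_ZFP_n_Rpl Input 4 without ND library 4 or RD library 2, and in n_ZFP_a_Rpl Input 3 without RD library 2.

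Cell type markers also moved between RD and ND. Of all genes tested, 25.4% rose and 25.5% fell in the hSyn IP, and 25.2% and 26.2% in the n_ZFP_n_Rpl IP. The shares were 17.4% and 16.2% in MG, and 20.6% and 24.7% in n_ZFP_a_Rpl. Striatal projection neuron markers fell for 14 of 15 in each IP, and their summed level was 6789.7 to 6831 CPM in RD and 17446 to 20169 in ND of the hSyn IP, 4104 to 5331 in RD and 11188 to 16964 in ND of n_ZFP_n_Rpl, 3035 to 4242 in RD and 11021 to 11545 in ND of MG, and 2988 to 3998 in RD and 11119 to 13015 in ND of n_ZFP_a_Rpl. Astrocyte markers fell for 17 of 18 and rose for 0 in the hSyn IP, at sums of 3951 to 4637 CPM in RD and 7539 to 10631 in ND, and for 13 and 1 in the n_ZFP_n_Rpl IP, where their sum was 2487 to 3116 CPM in RD and 4449 to 5632 in ND. In MG 3 fell and 0 rose, at 19174 to 26480.2 CPM in RD and 29279 to 36206 in ND, and in n_ZFP_a_Rpl 9 fell and 2 rose, at 20418 to 21888 in RD and 25712 to 30863 in ND. Gfap, an astrocyte filament, fell in the hSyn IP (-3.89 ± 0.58) and the n_ZFP_n_Rpl IP (-1.86 ± 0.30). The part of these shifts in the protocadherin results was not tested.

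Of the other markers, pan-neuronal genes (16) rose and fell for 3 and 8 in the hSyn IP, 3 and 8 in n_ZFP_n_Rpl, 1 and 5 in MG and 2 and 6 in n_ZFP_a_Rpl. Microglia markers (12) fell for 9, 5, 2 and 1 in that order and rose for 0, 0, 0 and 1, at sums of at most 52.4 CPM in any IP library. Oligodendrocyte markers (10) rose for 4, 6, 0 and 4 and fell for 0, 0, 0 and 1. Oligodendrocyte precursor markers (8) rose for 3, 3, 1 and 3 and fell for 2, 0, 3 and 1. Endothelial and mural markers (12) rose for 0, 0, 0 and 3 and fell for 4, 4, 0 and 1. Several of these counts lie near the shares of all genes given above, such as 2 of 8 precursor markers lower in the hSyn IP. Nothing particular to those lists is read from them. Each microglia, oligodendrocyte and precursor marker was lower in IP than in Input in all 3 sets with an Input.

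ZFP in R6/2 samples (RZ) was compared with RD, which shows whether the members shift when mutant huntingtin is targeted. In the n_ZFP_n_Rpl IP 2 members were higher and 11 lower in RZ, beside 9.47% and 7.95% of all genes, and in the n_ZFP_a_Rpl IP 6 and 6, beside 19.1% and 14.7%. In the hSyn and MG IPs 0 passed in either direction, beside 0.00652% and 0.0326% of all genes in hSyn (0.0391% in either) and 0.013% and 0.0652% in MG (0.0782% in either). At an unadjusted p under 0.05 there were 3 members in hSyn and 9 in MG, and DESeq2 called 0 in hSyn and 1, higher, in MG. Without MG RZ library 1, 2 members were higher and 3 lower in MG. Htt passed in none of these comparisons.

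The 11 that fell in the n_ZFP_n_Rpl IP were 9 beta genes (Pcdhb2, Pcdhb3, Pcdhb4, Pcdhb9, Pcdhb12, Pcdhb14, Pcdhb20, Pcdhb21 and Pcdhb22), Pcdhga2 and Pcdhgc3. Pcdhb2 had 3.92, 4.37, 4.18 and 4.66 CPM in RZ and 5.93, 6.33, 9.31 and 7.05 in RD (-0.74 ± 0.16, adjusted p = 0.00578). Pcdhb22 had 16.7, 17.6, 17.3 and 19.4 CPM in RZ and 24.6, 24.3, 26.3 and 28.9 in RD (-0.55 ± 0.07, adjusted p = 0.000196). Pcdhgc3 had 47.2, 49.8, 48.2 and 53.4 CPM in RZ and 67.4, 79.2, 74.4 and 80.3 in RD (-0.60 ± 0.11, adjusted p = 0.00156). RZ and RD did not overlap for these 3 genes. The 2 that rose were Pcdhga6 (0.33 ± 0.10, adjusted p = 0.0315) and Pcdhgb7 (0.30 ± 0.09, adjusted p = 0.0325). Those 2 calls rested on single libraries: 0 were higher without RD library 2 or RZ library 2, and 1 without RD library 1 or 3 or RZ library 1 or 3. The beta sum was 328 ± 17.8 CPM in RZ and 391 ± 32.0 in RD (SD, n = 4 each), without overlap.

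In the n_ZFP_a_Rpl IP the members that fell in RZ were Pcdhb2, Pcdhb21, Pcdhb22, Pcdhga2, Pcdhgb1 and Pcdhgc3, and those that rose were Pcdha6, Pcdha12, Pcdhac1, Pcdhac2, Pcdhb8 and Pcdhgc5. Pcdhga2 had 20.5, 19.6, 18.7 and 19.8 CPM in RZ and 30.3, 26.0 and 32.1 in RD, without overlap (-0.58 ± 0.10, adjusted p = 0.000252). Pcdhgc5 had 98.6, 115, 104 and 107 CPM in RZ and 83.8, 86.0 and 80.3 in RD, also apart (0.35 ± 0.09, adjusted p = 0.00527). Pcdhac1 changed by 0.60 ± 0.18 (adjusted p = 0.0159), Pcdhac2 by 0.24 ± 0.04 (adjusted p = 0.00036) and Pcdhgc3 by -0.28 ± 0.09 (adjusted p = 0.019), while Pcdhgc4 had 0.09 ± 0.14 (adjusted p = 0.659). With the ratio of Pcdhga11 to Pcdhgb8 in the model 3 fell, and without RD library 2, 3 rose. Falls over all genes went from 2236 to 1256 with the ratio. The alpha sum was 114 ± 3.84 CPM in RZ (n = 4) and 100.2 ± 3.91 in RD (n = 3), without overlap.

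C-type members in the remaining IPs had log2 fold changes of RZ over RD of 0.46 ± 0.19 (Pcdhac1), 0.12 ± 0.10 (Pcdhac2), 0.23 ± 0.10 (Pcdhgc4) and 0.13 ± 0.10 (Pcdhgc5) in n_ZFP_n_Rpl. In hSyn they were -0.16 ± 0.28, -0.03 ± 0.09, 0.04 ± 0.11 and -0.17 ± 0.10, with 0.03 ± 0.14 for Pcdhgc3. In MG they were 0.02 ± 0.20, 0.04 ± 0.08, 0.28 ± 0.10 and -0.12 ± 0.10, with -0.10 ± 0.16 for Pcdhgc3. None of these passed the test. In hSyn IP Pcdhb2 had 7.67, 7.83, 8.02 and 10.002 CPM in RZ, a range that overlapped the RD values given above.

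In n_ZFP_a_Rpl Input 1 member rose, Pcdhgc5 (0.24 ± 0.07, adjusted p = 0.0282), and 3 fell, Pcdhb21 (-0.43 ± 0.09), Pcdhb22 (-0.37 ± 0.09) and Pcdhga2 (-0.46 ± 0.14), beside 11.1% and 5.03% of all genes. The rise of Pcdhgc5 was lost without RD library 2 or 3 or RZ library 2, 3 or 4, 5 fell without RZ library 4, and 1 fell with the ratio in the model. In n_ZFP_n_Rpl Input 0 passed, beside 2.49% and 0.828%, with 6 at an unadjusted p under 0.05 and 0 by DESeq2, and 1 fell without RD library 1 or RZ library 4. In hSyn Input 0 passed, beside 0% in both directions, with 3 at an unadjusted p under 0.05 and 0 by DESeq2. Striatal projection neuron markers rose in RZ against RD for 11 of 15 in the n_ZFP_n_Rpl IP and 15 of 15 in the n_ZFP_a_Rpl IP, with sums of 6159 to 9784 CPM in RZ and 4104 to 5331 in RD, and 8317 to 9553 in RZ and 2988 to 3998 in RD, and for 0 in the hSyn and MG IPs. Astrocyte markers rose for 3 of 18 in the n_ZFP_n_Rpl IP and fell for 17 in the n_ZFP_a_Rpl IP. Of all genes, 9.47% rose in the n_ZFP_n_Rpl IP, and 19.1% rose and 14.7% fell in the n_ZFP_a_Rpl IP. The part of these markers in the protocadherin changes was not tested.

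RZ was also compared with ND, the control condition, to which RD and RZ are both set. In the hSyn IP 29 members were higher and 7 lower in RZ, beside 25.8% and 25.4% of all genes (51.2% in either), in n_ZFP_n_Rpl 17 and 3, beside 14.7% and 16.5%, in MG 9 and 6, beside 19.4% and 17.6% (37% in either), and in n_ZFP_a_Rpl 14 and 1, beside 11.3% and 13.1%. Beta genes were 18, 11, 5 and 9 of those higher. Pcdhb12 was higher in RZ in each, by 1.08 ± 0.11 in hSyn, 0.63 ± 0.11 in n_ZFP_n_Rpl, 0.44 ± 0.11 in MG and 0.47 ± 0.10 in n_ZFP_a_Rpl. Pcdhb2 was 1.29 ± 0.15 (adjusted p = 2.39e-06) in hSyn and 0.38 ± 0.17 (adjusted p = 0.0965) in n_ZFP_n_Rpl. Pcdhac1 fell in hSyn (-1.11 ± 0.25) and MG (-0.71 ± 0.20), and had -0.29 ± 0.19 (adjusted p = 0.259) in n_ZFP_n_Rpl and -0.10 ± 0.16 (adjusted p = 0.699) in n_ZFP_a_Rpl. Pcdhgc3 rose in hSyn (0.61 ± 0.12) and fell in n_ZFP_a_Rpl (-0.40 ± 0.08, adjusted p = 0.00232).

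Pcdhgc5 fell in RZ against ND in hSyn (-0.40 ± 0.09), n_ZFP_n_Rpl (-0.35 ± 0.10) and MG (-0.77 ± 0.10), and had -0.22 ± 0.08 (adjusted p = 0.0533) in n_ZFP_a_Rpl. The n_ZFP_a_Rpl count of higher members was 5 without ND library 3, 6 without ND library 1 or RZ library 4 and 8 without RZ library 1 or 2. The 1 lower member there became 2 without ND library 3 or 4 or RZ library 2. In n_ZFP_n_Rpl 10 were higher without ND library 3 and 11 without RZ library 2, and 1 was lower without ND library 4 or RZ library 4. In MG 5 were higher without RZ library 3.

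ZFP in NCAR samples (NZ) was compared with ND. In the MG IP 0 members rose and 11 fell in NZ, beside 3.68% and 3.36% of all genes, and the median over the members was -0.31. They were 7 beta and 4 gamma genes, with Pcdhga3 (-0.65 ± 0.17, adjusted p = 0.0355), Pcdhb14 (-0.53 ± 0.13, adjusted p = 0.0296), Pcdhgb5 (-0.47 ± 0.10, adjusted p = 0.0252) and Pcdhb16 (-0.44 ± 0.10, adjusted p = 0.0259) the lowest of their classes. The beta sum was 297 ± 23.8 CPM in NZ and 378 ± 32.1 in ND (SD, n = 4 each), without overlap. This count rested on few libraries: 0 fell without ND library 1, 2 or 3 or NZ library 3 or 5. It was 6 without the filter on low counts and 20 by DESeq2. In the same libraries 7 of 15 striatal projection neuron markers fell, at a sum of 6041 to 10517 CPM in NZ and 11021 to 11545 in ND, and their part in the result was not tested.

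Of the n_ZFP_n_Rpl IP members, 2 fell in NZ, Pcdhb14 (-0.28 ± 0.07, adjusted p = 0.025) and Pcdhb20 (-0.28 ± 0.08, adjusted p = 0.0438), and 0 rose, beside 4.5% and 2.86% of all genes. Neither count held throughout: 0 fell without ND library 3 or NZ library 2 or 3, 1 fell without ND library 1 or 4 or NZ library 1 or 4, and 1 rose without ND library 4. In the n_ZFP_a_Rpl IP 1 rose, Pcdha12 (0.39 ± 0.09, adjusted p = 0.0385), and 0 fell, beside 1.2% and 0.872%. No member rose without ND library 3 or 4 or NZ library 1, 2 or 4, and 2 rose without NZ library 3. In the hSyn IP 0 passed, beside 0% and 0.0261%, with 6 at an unadjusted p under 0.05 and 0 by DESeq2. No C-type member passed in NZ against ND, where Pcdhgc3 had 0.16 ± 0.12 in hSyn, 0.30 ± 0.11 in n_ZFP_n_Rpl, 0.09 ± 0.16 in MG and -0.12 ± 0.08 in n_ZFP_a_Rpl.

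Whether ZFP acted differently in R6/2 and NCAR samples was tested as an interaction, the ZFP effect in R6/2 minus that in NCAR. In the n_ZFP_n_Rpl IP 2 members were positive, Pcdhga6 (0.56 ± 0.14, adjusted p = 0.0159) and Pcdhgb7 (0.48 ± 0.13, adjusted p = 0.0196), and 2 negative, Pcdhgc3 (-0.90 ± 0.15, adjusted p = 0.00174) and Pcdhb22 (-0.38 ± 0.11, adjusted p = 0.031), beside 8.47% and 4.68% of all genes. Pcdhgc3 had 54.5, 49.2, 41.8 and 58.2 CPM in NZ there, against the RZ, RD and ND values given above. In the n_ZFP_a_Rpl IP 1 was positive, Pcdhac2 (0.31 ± 0.06, adjusted p = 0.00141), and 2 negative, Pcdhga2 (-0.60 ± 0.13, adjusted p = 0.0063) and Pcdhgb1 (-0.52 ± 0.17, adjusted p = 0.0472), beside 11.4% and 5.07%. The counts of negative members moved when single libraries were left out, to 1 without any of 9 libraries in n_ZFP_n_Rpl, and to between 1 and 4 in n_ZFP_a_Rpl. In the hSyn and MG IPs 0 passed, beside 0% in both directions, with 0 in hSyn and 14 in MG at an unadjusted p under 0.05, and 0 in hSyn and 2 in MG by DESeq2.

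The genes that act on the locus were followed in lists chosen with results of these data known. Of all genes tested, 25.4% rose and 25.5% fell in RD against ND in the hSyn IP, 25.2% and 26.2% in n_ZFP_n_Rpl, 17.4% and 16.2% in MG, and 20.6% and 24.7% in n_ZFP_a_Rpl. Several list counts lie near these shares, such as 8 of 15 flanking genes called in either direction in the hSyn IP beside 51% of all genes, and nothing particular to a list is read from them. Of 23 regulators of the clusters, 12 rose and 4 fell in RD against ND in the hSyn IP, 11 and 5 in n_ZFP_n_Rpl, 7 and 2 in MG and 12 and 3 in n_ZFP_a_Rpl, with medians of 0.14, 0.15, 0.15 and 0.13. Smchd1, which silences clustered protocadherin genes, rose in all 4, by 0.45 ± 0.05 in hSyn, 0.29 ± 0.05 in n_ZFP_n_Rpl, 0.51 ± 0.07 in MG and 0.47 ± 0.04 in n_ZFP_a_Rpl. Dnmt3a, a DNA methyltransferase, fell in all 4, with log2 changes of -0.60 ± 0.08, -0.50 ± 0.05, -0.72 ± 0.07 and -0.53 ± 0.05 in that order. Rest, a repressor with binding sites in the alpha cluster, rose in hSyn (0.60 ± 0.19), n_ZFP_n_Rpl (0.83 ± 0.13) and n_ZFP_a_Rpl (0.61 ± 0.09) and had 0.29 ± 0.11 (adjusted p = 0.0547) in MG. Wiz, a zinc-finger protein, rose in hSyn (0.61 ± 0.09), n_ZFP_n_Rpl (0.71 ± 0.09) and n_ZFP_a_Rpl (0.27 ± 0.07) and had 0.19 ± 0.10 (adjusted p = 0.17) in MG. Ctcf, the architectural factor bound at the promoters, had -0.06 ± 0.05 (adjusted p = 0.398) in hSyn, -0.09 ± 0.04 (adjusted p = 0.0567) in n_ZFP_n_Rpl, -0.02 ± 0.07 (adjusted p = 0.845) in MG and 0.05 ± 0.04 (adjusted p = 0.294) in n_ZFP_a_Rpl.

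Of 23 intracellular partners, 6 rose and 10 fell in the hSyn IP, 3 and 11 in n_ZFP_n_Rpl, 4 and 8 in MG and 6 and 12 in n_ZFP_a_Rpl, with medians of -0.05, -0.08, -0.04 and -0.11. Ptk2b, the kinase Pyk2 that protocadherins inhibit, fell, with log2 changes of -0.70 ± 0.06, -0.73 ± 0.06, -0.88 ± 0.13 and -0.91 ± 0.08 in that order. Marcks, an actin regulator downstream of gamma protocadherins in mouse cortex, rose by 0.74 ± 0.06, 0.48 ± 0.06, 0.34 ± 0.09 and 0.45 ± 0.10. Cyfip2, of the WAVE complex that binds alpha and other protocadherins, fell, with log2 changes of -0.59 ± 0.06, -0.54 ± 0.07, -0.71 ± 0.08 and -0.73 ± 0.04. Of 8 processing proteases 4 rose and 2 fell, 3 and 1, 2 and 0, and 4 and 1 in the same order. Psen2, a catalytic subunit of gamma-secretase, which releases the intracellular fragment, rose by 0.27 ± 0.11 in hSyn, 0.44 ± 0.09 in n_ZFP_n_Rpl, 0.39 ± 0.07 in MG and 0.28 ± 0.06 in n_ZFP_a_Rpl.

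Of 12 non-clustered protocadherins 5 rose and 2 fell in the hSyn IP, 5 and 2 in n_ZFP_n_Rpl, 6 and 2 in MG and 3 and 2 in n_ZFP_a_Rpl, with medians of 0.13, 0.23, 0.35 and 0.08. Pcdh19, an adhesion protein whose human gene is mutated in an epilepsy, rose by 1.54 ± 0.10, 1.31 ± 0.10, 1.16 ± 0.12 and 0.89 ± 0.11. Pcdh1, whose gene lies 3' of the gamma cluster, fell in all 4 IPs, with log2 changes of -0.16 ± 0.06, -0.28 ± 0.10, -0.32 ± 0.08 and -0.33 ± 0.06. Classical and type II cadherins (19) rose for 3, 2, 2 and 3 and fell for 5, 5, 6 and 8. Large cadherins (8) rose for 3, 3, 2 and 2 and fell for 2, 3, 2 and 2, with Dchs1 higher in all 4, by 0.77 ± 0.08, 0.85 ± 0.09, 0.22 ± 0.07 and 0.46 ± 0.08.

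Genes flanking or lying within the locus (15) rose for 6 in the hSyn IP, 5 in n_ZFP_n_Rpl, 2 in MG and 3 in n_ZFP_a_Rpl, and fell for 2, 4, 1 and 5, with medians of -0.04, 0.01, 0.06 and -0.05. Taf7, a general transcription factor subunit whose gene sits between the beta and gamma clusters, fell in hSyn (-0.31 ± 0.09) and n_ZFP_n_Rpl (-0.30 ± 0.08) and had -0.12 ± 0.09 (adjusted p = 0.332) in MG and -0.17 ± 0.08 (adjusted p = 0.0881) in n_ZFP_a_Rpl. Hars2, a histidyl-tRNA synthetase of mitochondria 5' of the alpha cluster, rose by 0.32 ± 0.08, 0.32 ± 0.07, 0.25 ± 0.07 and 0.26 ± 0.05. Tmco6, also 5' of the alpha cluster, fell in the hSyn (-0.49 ± 0.17), n_ZFP_n_Rpl (-0.59 ± 0.16) and n_ZFP_a_Rpl (-0.76 ± 0.14) IPs. It was among the genes that varied with Pcdhga11 from library to library.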

How the data were processed

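The deposited table holds raw counts per gene for 110 libraries, made with STAR and HTSeq on mm10 per the submitters' processing notes; versions, strand setting and how reads in shared exons were treated are not stated there. Rows with a repeated symbol (4 of 24060) were left out. Levels are CPM after TMM scaling. For each set and fraction edgeR 4.0.16 (R 4.3.3, limma 3.58.1) fitted the 4 conditions in 1 robust quasi-likelihood model, after filterByExpr with a minimum count of 10 and total of 15, with Benjamini-Hochberg adjustment over all genes at 0.05. Standard errors are the fold change divided by the square root of F. DESeq2 1.42.0, RLE factors, no filter, fits of 2 groups, a replicate block and leaving out each library were alternatives. The model was tested on simulated data with 200 changed genes. Far more genes were called between RD and ND, so that simulation does not check the scaling or the error rate at such a share. No pair of replicates agreed within sampling noise (smallest chi-square per degree of freedom 5.4).

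The members and the 14 gene lists were chosen with earlier results of these data known. Members named are the C-type isoforms and the extremes among called alpha, beta and gamma A or B genes at a mean of 0.5 CPM or more, up to 3 in each direction for RD against ND in IP and for IP against Input and up to 2 elsewhere. Of each other list up to 2 called genes in each direction at 1 CPM or more could be named, and Ctcf, Smchd1, Taf7, Pcdh1 and Htt always. Members named for 1 comparison could also be described in the others, and Pcdhga11, Pcdhgb8 and Pcdhgb6 were chosen after their values were seen. IP and Input libraries of the same number deviated together, with correlations of 0.438 to 0.719 in n_ZFP_a_Rpl and 0.552 to 0.846 in n_ZFP_n_Rpl.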

Additional observations from a re-analysis of the deposited data

Results flagged for a closer look

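Single libraries lay apart from the others of their group by Dixon's test at 95% for 23 of 360 groups of 4 or 5 libraries, over 15 quantities (members and cluster sums). Chance flags about 1 in 20 groups. Pcdhb2 had 2.29 CPM in hSyn IP NZ library 1 (others 3.51 to 3.71), 10.002 CPM in hSyn IP RZ library 4 (others 7.67 to 8.02) and 3.37 CPM in n_ZFP_a_Rpl Input NZ library 1 (others 2.31 to 2.41). Pcdhb21 had 12.1 CPM in MG IP ND library 3 (others 8.76 to 9.02), 8.32 CPM in n_ZFP_n_Rpl IP ND library 1 (others 7.04 to 7.13), 7.49 CPM in n_ZFP_n_Rpl Input ND library 2 (others 8.55 to 8.70) and 6.93 CPM in n_ZFP_n_Rpl Input NZ library 1 (others 8.12 to 8.32). Pcdhb22 had 11.5 CPM in hSyn IP NZ library 1 (others 13.5 to 13.8). Pcdhga2 had 33.0 CPM in n_ZFP_n_Rpl IP RD library 4 (others 23.7 to 24.8). Pcdhac2 had 64.5 CPM in n_ZFP_n_Rpl Input NZ library 2 (others 55.4 to 56.7). Pcdhgc5 had 119 CPM in hSyn IP ND library 0 (others 138 to 145). Pcdhga11 had 34.5 CPM in MG IP NZ library 4 (others 15.1 to 17.5). Pcdhgb8 had 6.75 CPM in n_ZFP_a_Rpl IP ND library 1 (others 1.25 to 2.07), 5.00 CPM in n_ZFP_a_Rpl IP RZ library 4 (others 1.63 to 2.05), 8.04 CPM in n_ZFP_a_Rpl Input RZ library 4 (others 4.79 to 4.96) and 1.83 CPM in n_ZFP_n_Rpl IP NZ library 1 (others 5.04 to 5.53). The alpha cluster sum had 159 CPM in n_ZFP_n_Rpl IP NZ library 2 (others 131 to 133). The beta cluster sum had 355 CPM in n_ZFP_a_Rpl IP ND library 2 (others 292 to 302), 289 CPM in n_ZFP_n_Rpl IP ND library 1 (others 246 to 249), 215 CPM in n_ZFP_n_Rpl IP NZ library 3 (others 231 to 234) and 231 CPM in n_ZFP_n_Rpl Input NZ library 3 (others 249 to 252). The gamma cluster sum had 817 CPM in n_ZFP_a_Rpl IP RZ library 2 (others 788 to 791) and 524 CPM in n_ZFP_n_Rpl IP RD library 2 (others 573 to 582).

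The following log2 differences between groups passed edgeR's quasi-likelihood test with Benjamini-Hochberg adjustment over all genes. For the ZFP effect in R6/2 minus that in NCAR samples in the n_ZFP_a_Rpl IP they were Pcdhac2 0.31 (adjusted p = 0.00141), Pcdhgb1 -0.52 (adjusted p = 0.0472) and Pcdhga2 -0.60 (adjusted p = 0.0063). In the n_ZFP_n_Rpl IP the same interaction was passed by Pcdhga6 0.56 (adjusted p = 0.0159), Pcdhgb7 0.48 (adjusted p = 0.0196), Pcdhb22 -0.38 (adjusted p = 0.031) and Pcdhgc3 -0.90 (adjusted p = 0.00174). For RD against ND, neuron minus astrocyte IPs, they were Pcdhgc3 0.88 (adjusted p = 4.57e-06), Pcdhb6 0.88 (adjusted p = 0.0421), Pcdhb2 0.65 (adjusted p = 0.00617), Pcdhga9 0.58 (adjusted p = 0.0188), Pcdhb12 0.57 (adjusted p = 0.000417) and Pcdha12 0.55 (adjusted p = 0.0295). Next came Pcdhga2 0.49 (adjusted p = 0.00106), Pcdhb4 0.49 (adjusted p = 0.0123), Pcdha3 0.47 (adjusted p = 0.0297), Pcdhb9 0.46 (adjusted p = 0.00015), Pcdhb13 0.44 (adjusted p = 0.0241) and Pcdhb15 0.42 (adjusted p = 0.0122). Further ones were Pcdhb16 0.42 (adjusted p = 0.000957), Pcdhb21 0.40 (adjusted p = 0.00459), Pcdhb19 0.35 (adjusted p = 0.00563), Pcdhb7 0.34 (adjusted p = 0.0199), Pcdhb20 0.32 (adjusted p = 0.0113) and Pcdhb22 0.27 (adjusted p = 0.0166). Also past the threshold was Pcdhgb7 -0.37 (adjusted p = 0.00669). For IP against Input, n_ZFP_n_Rpl minus n_ZFP_a_Rpl, they were Pcdha7 0.55 (adjusted p = 5.83e-06), Pcdhac1 0.48 (adjusted p = 0.00019), Pcdhac2 0.26 (adjusted p = 1.29e-05), Pcdha11 0.26 (adjusted p = 0.0346), Pcdhb15 0.22 (adjusted p = 0.027) and Pcdhb9 0.18 (adjusted p = 0.00979). Next came Pcdhga6 -0.16 (adjusted p = 0.0443), Pcdhgb5 -0.21 (adjusted p = 0.0263), Pcdhb5 -0.23 (adjusted p = 0.0367), Pcdhgb1 -0.26 (adjusted p = 0.00551), Pcdhb4 -0.29 (adjusted p = 0.011) and Pcdhga12 -0.31 (adjusted p = 0.00093). Further ones were Pcdhgb4 -0.45 (adjusted p = 1.59e-05), Pcdhgb7 -0.47 (adjusted p = 8.13e-09), Pcdhgc4 -0.85 (adjusted p = 1.7e-14) and Pcdhgc3 -2.19 (adjusted p = 4.86e-34).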

How the results depend on the processing

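Counts are of members called, higher then lower where both are given. With the log ratio of Pcdhga11 to Pcdhgb8 as a covariate, chosen after seeing the data, RD against ND gave 11 and 5 in the n_ZFP_a_Rpl IP and 3 lower in its Input, and RZ against RD gave 3 lower in the n_ZFP_a_Rpl IP and 1 lower in its Input. Calls over all genes also fell with this covariate in both comparisons of the n_ZFP_a_Rpl IP and for RD against ND in its Input. DESeq2 gave 1 higher for RZ against RD in MG and 2 higher in n_ZFP_a_Rpl Input. For NZ against ND it gave 20 lower in MG, 2 higher in n_ZFP_a_Rpl, and 1 and 4 in n_ZFP_n_Rpl. It gave 2 lower for RZ against ND in n_ZFP_a_Rpl, 2 positive for the interaction in MG and 2 negative for the neuron minus astrocyte difference, as did RLE factors for the last. Without the filter on low counts NZ against ND gave 6 lower in MG and 1 lower in n_ZFP_n_Rpl. Fits of the 2 groups alone gave, comparing RZ with RD, 1 higher in the n_ZFP_n_Rpl IP and 2 higher in n_ZFP_a_Rpl Input, and 0 higher and 1 lower for NZ against ND in n_ZFP_a_Rpl and 0 lower in n_ZFP_n_Rpl. Same-numbered libraries of different conditions had median correlations between -0.0359 and 0.0709 in 6 fits and of 0.196 in the n_ZFP_n_Rpl IP, where other pairs had a median of 0.00315. The lowest pair there was at -0.446, so the numbers were not taken to pair the samples. With the replicate number as a block (replicate block), NZ against ND gave 0 lower in MG and 1 and 1 in n_ZFP_n_Rpl, RZ against ND 2 lower in n_ZFP_a_Rpl, and the interaction 2 positive in n_ZFP_a_Rpl and 1 negative in n_ZFP_n_Rpl. IP against Input gave 51 higher in hSyn, 45 and 5 in n_ZFP_a_Rpl and 44 and 4 in n_ZFP_n_Rpl with that block, whose numbers in hSyn ND join libraries that did not deviate together (IP and Input 2, 3 and 4, r = -0.00879, -0.278 and -0.118). The block changed no other count of calls by over 1.5 times. The causes were not tested.

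Leaving out 1 library at a time, RD against ND gave 5 to 7 higher and 3 to 7 lower in MG, 24 to 30 and 3 to 6 in the hSyn IP, 15 to 23 and 3 to 4 in the n_ZFP_a_Rpl IP, and 23 to 27 and 4 to 7 in the n_ZFP_n_Rpl IP. The Inputs gave 13 to 22 and 1 to 6 in hSyn, 16 to 21 and 3 to 6 in n_ZFP_a_Rpl, and 19 to 23 and 4 to 7 in n_ZFP_n_Rpl. RZ against RD gave 0 to 2 and 0 to 3 in MG, 3 to 5 and 4 to 7 in the n_ZFP_a_Rpl IP, 0 to 2 and 8 to 13 in the n_ZFP_n_Rpl IP, 0 to 1 and 2 to 5 in n_ZFP_a_Rpl Input and 0 to 1 lower in n_ZFP_n_Rpl Input. NZ against ND gave 0 to 11 lower in MG, 0 to 2 higher in n_ZFP_a_Rpl, and 0 to 1 and 0 to 2 in n_ZFP_n_Rpl. RZ against ND gave 5 to 9 and 4 to 9 in MG, 28 to 30 and 5 to 9 in hSyn, 5 to 15 and 1 to 2 in n_ZFP_a_Rpl, and 10 to 18 and 1 to 3 in n_ZFP_n_Rpl. The interaction gave 1 to 2 and 1 to 4 in n_ZFP_a_Rpl, and 2 to 3 and 1 to 3 in n_ZFP_n_Rpl. IP against Input gave 48 to 51 higher in hSyn, 41 to 44 and 4 to 5 in n_ZFP_a_Rpl, and 40 to 43 and 3 to 4 in n_ZFP_n_Rpl. The neuron minus astrocyte difference gave 11 to 19 and 1 to 2, and the n_ZFP_n_Rpl minus n_ZFP_a_Rpl difference of IP against Input 5 to 9 and 7 to 11. Members near or under 1 CPM, such as Pcdha4 and Pcdha8, rest on few reads.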
